A study of Mus musculus with 6 samples.

Results

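The transcripts of ErbB receptors and of the EGF-family ligands that bind them were examined in sorted PyMT tumor cells. The 10 genes were chosen by name: Egfr, Erbb2, Erbb3 and Erbb4 for the receptors, and Areg, Ereg, Hbegf, Tgfa, Btc and Nrg1 for the ligands. Of these, 9 had values among the 22310 genes of the table, and Erbb4 was not analysed here.

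The cells came from mammary tumors of MMTV-PyMT mice, in which the MMTV promoter drives the polyoma middle T oncogene in mammary epithelium. The mice were in the FVB/N background and between 12 and 18 weeks of age. Tumor cells were plated, sorted the next day by flow cytometry, and sequenced. Metastasis-initiating cells (MICs) were Lin-CD24+CD90+ and non-MICs were Lin-CD24+CD90-, and 3 libraries numbered 1 to 3 were made from either population, each number standing for a pair of libraries. The medium of both populations held 20 ng/ml of human EGF, 10 µg/ml of insulin and 2% serum, so every library came from cells exposed to an added EGFR ligand before the sort.

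ErbB receptors are receptor tyrosine kinases that signal as dimers, mainly through the RAS-ERK and PI3K-AKT pathways. The ligands are made as membrane-anchored precursors and are released by cell surface proteases such as ADAM17. Amphiregulin, TGF-alpha and EGF bind EGFR, while heparin-binding EGF, epiregulin and betacellulin bind EGFR and ErbB4, and neuregulin 1 binds ErbB3 and ErbB4. ErbB2 has no known ligand and pairs with the other receptors, and ErbB3 has little kinase activity of its own. In the mammary gland, amphiregulin acts through EGFR in ductal growth.

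The libraries held between 31467281 and 51759769 reads, and replicate 3 was the deepest in both populations. Values are normalized counts, the reads of a gene scaled so that each library sums to 35000000 within 1 unit. Thy1, which encodes the sorting marker CD90, measured 1509 (pair 1), 301 (pair 2) and 755 (pair 3) in MICs, against 16.93, 21.13 and 12.62 in non-MICs (limma adjusted p = 0.816, and 5.31e-05 with the replicate number as a block). Cd24a, the gene of CD24, lay between 11309 and 19406 over all 6 libraries. Of the genes behind the lineage gate, Ptprc (CD45) lay between 0 and 10.01 and Pecam1 (CD31) between 4.057 and 19.41. The summed values of 8 basal epithelial markers lay between 8502 and 318730 in MICs and between 6837 and 79552 in non-MICs, and 6 of the 8 were higher in MICs in all 3 pairs. The sums of 8 luminal markers lay between 203142 and 581090 in MICs and between 267444 and 682836 in non-MICs, with 4 of 8 lower in MICs in all 3 pairs. For 8 fibroblast markers the sums were 670 to 2156 in MICs and 585 to 1110 in non-MICs, with 4 of 8 higher in all pairs. The sums of 6 hormone-sensing luminal markers (4563 to 9139 and 5349 to 10928) and 6 endothelial markers (35.16 to 57.15 and 25.4 to 47.69, in MICs and non-MICs) overlapped between populations, as did those of the immune markers given with pair 2. For 5 Schwann cell markers the sums overlapped too but were lower in MICs in each pair. They were 2771, 1545 and 3013 in MICs of pairs 1, 2 and 3, against 5925, 1752 and 3737 in non-MICs. Of the 5 markers, 3 were lower and 1 was higher in MICs in all pairs. In bulk RNA, fewer cells with a transcript and less of it per cell cannot be told apart.

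Differences between MICs and non-MICs were tested with limma on log2(normalized count + 1) over all 22310 genes, a scale that understates changes of low genes. No member passed an adjusted p of 0.05, and the share of genes called over the whole table was 0% (322 genes, or 1.44%, had an unadjusted p under 0.05, none of them a member). Libraries with the same number varied together, and with the replicate number as a block 0 of the 9 members passed, against 0.13% of all genes. Erbb2, Erbb3 and Tgfa had an unadjusted p under 0.05 in that fit, all with lower values in MICs, against 11.2% of all genes. On the recovered reads, 0 members passed in edgeR (0% of all genes, and 1.32% at an unadjusted p under 0.05, no member among them). With the block, edgeR called 1.41% of all genes and 0 members, and Erbb2, Erbb3 and Tgfa were again those with an unadjusted p under 0.05, against 11.7%. DESeq2 called 0 members, against 0.00452% of all genes and 0.596% with the block. At an unadjusted p under 0.05 DESeq2 had no member without the block (1.2% of all genes, with no p for Areg) and 2 with it (8.58%), namely Tgfa and Ereg, the latter with higher values in MICs, while Erbb2 and Erbb3 did not reach it. Within same-numbered pairs, Egfr and Ereg were higher in MICs in all 3 pairs, against 12.5% of all genes and 13.1% of those with a mean normalized count of at least 100, and Erbb2 and Tgfa were lower in all 3, against 18.8% and 28.5%. The median log2 fold change of the 9 members was -0.05, and that of all genes was -0.045.

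**Figure D1:**
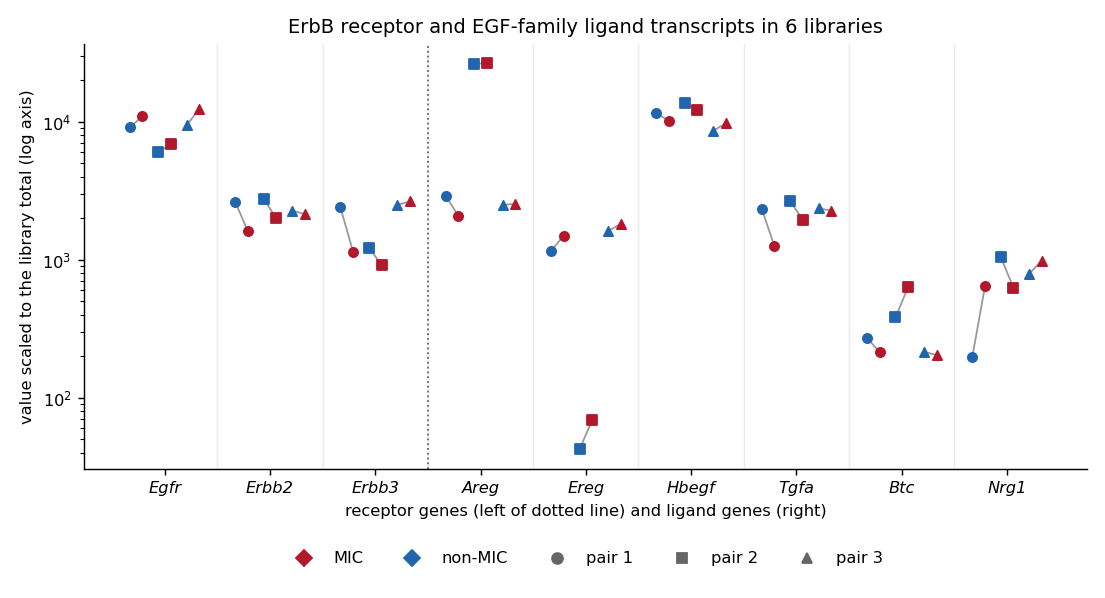
Normalized counts of the 9 genes in each of the 6 libraries on a log axis, with blue symbols for non-MICs, red symbols for MICs, a marker shape for each pair and a grey line joining the 2 libraries of a pair. The lines of Egfr and Ereg slope up in all 3 pairs, those of Erbb2 and Tgfa slope down, and Areg (26300 and 26521) and Ereg (42.26 and 68.96) of pair 2 lie far from the other pairs.

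Egfr, the receptor of EGF itself, lies on chromosome 11 from 16752203 to 16918158 of GRCm38. Normalized counts in pairs 1, 2 and 3 were 10929, 6895 and 12274 for MICs, against 9126, 6009 and 9494 for non-MICs, and other genes are given in the same order. Both populations were lowest in pair 2, so the groups overlapped although each MIC library exceeded its own non-MIC library. The ratio of MICs to non-MICs was 1.2, 1.15 and 1.29 in pairs 1, 2 and 3. This gave a log2 fold change of 0.28 (standard error, SE, 0.29, limma adjusted p = 1), and with the block the SE was 0.16 (adjusted p = 0.529). The antisense gene Egfros overlaps Egfr and had a mean normalized count of 32.4.

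Erbb2, the receptor without a ligand, lies on chromosome 11 from 98412470 to 98437716. MICs had normalized counts of 1614, 2002 and 2145, against 2635, 2769 and 2270 for non-MICs. All MIC libraries lay below all non-MIC libraries, a separation seen in 6.24% of all genes. On the log2 scale MICs differed by -0.42 (SE 0.21, limma adjusted p = 1), and the differences in pairs 1, 2 and 3 were -0.71, -0.47 and -0.08, so pair 3 differed least. With the block the adjusted p was 0.423. The gene Mien1 overlaps Erbb2 on the other strand, with a mean normalized count of 1380, and the strand setting of the counting is not given in the sources used here.

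Erbb3, the partner receptor that binds neuregulins, lies on chromosome 10 from 128567523 to 128589652. MIC libraries measured 1141, 915 and 2648 and non-MIC libraries 2394, 1227 and 2502 normalized counts. It was lower in MICs in pairs 1 and 2, by 1.07 and 0.42 on the log2 scale, but exceeded non-MICs by 0.08 in pair 3. Across pairs this was a log2 fold change of -0.47 (SE 0.45, limma adjusted p = 1, and 0.43 with the block).

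**Figure D2:**
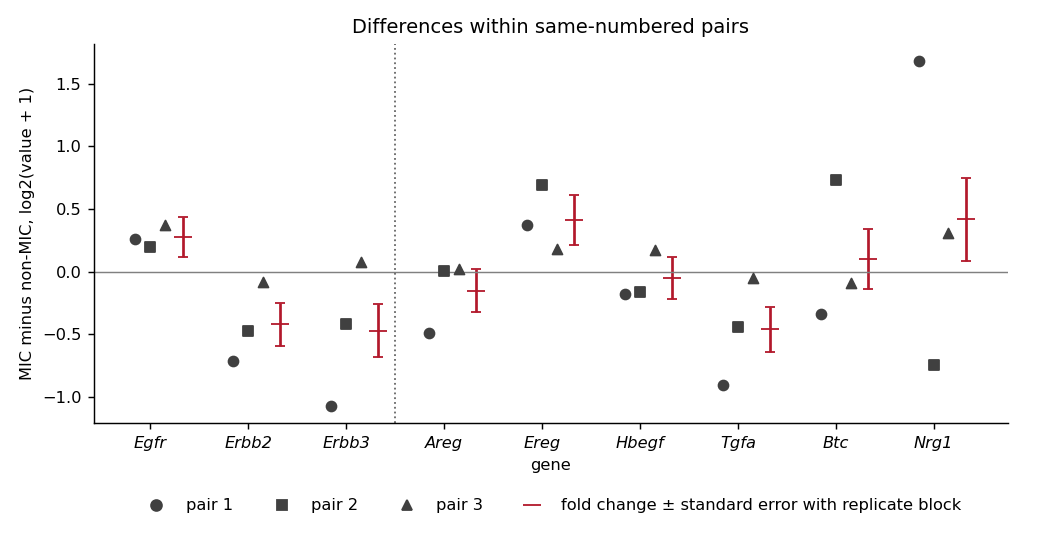
Difference of MICs minus non-MICs on the log2(normalized count + 1) scale for each gene, with black symbols for pairs 1, 2 and 3 and a red bar for the log2 fold change with its standard error from the fit with the replicate block. Egfr shows the smallest spread among the genes on 1 side of 0 (0.20 to 0.37), and Nrg1 shows the widest (-0.74 to 1.68).

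Levels of different genes were compared per kb of merged exons. Within the receptors Egfr had the highest level in 5 of 6 libraries, at 886 ± 247 (SD, n = 3) normalized counts per kb in MICs and 725 ± 169 in non-MICs. Erbb2 followed with 369 ± 52.7 in MICs and 491 ± 49.6 in non-MICs, and Erbb3 was lowest on average with 261 ± 157 and 339 ± 118. In non-MIC replicate 2 Egfr and Erbb2 were level, at 531 and 532 per kb, and in MIC replicate 3 Erbb3 (440) lay above Erbb2 (412). Per kb of the longest transcript (10208 bases for Egfr and 5012 for Erbb2), Egfr lay above Erbb2 in non-MIC replicate 2 as well. The SDs of Erbb2 and Erbb3 overlapped in both populations. Both genes were measured in the same libraries, and Erbb2 lay above Erbb3 in each of them except MIC replicate 3. Their order was not tested.

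Among the 3 receptors with values, Egfr made up 65.9%, 53.2% and 56.0% of the summed level per kb in the MIC libraries, against 47.1%, 41.9% and 49.6% in the non-MIC libraries. Every MIC library had a larger Egfr share than every non-MIC library. The mean share was 58.3% ± 6.69 (SD, n = 3) in MICs and 46.2% ± 3.93 in non-MICs, a difference of 12.13 percentage points (exact two-sided permutation test, p = 0.1, the smallest that 3 against 3 can give, and 0.9 after adjustment over 9 genes). Within pairs the Egfr share was higher in MICs by 18.76, 11.25 and 6.38 points. The differences of the Erbb2 share were -8.43, -8.43 and -4.51 points and those of the Erbb3 share -10.33, -2.82 and -1.87 points (exact permutation p = 0.3 and 0.2, and 0.9 after adjustment). The summed receptor level itself was 0.857, 0.905 and 1.15 times that of non-MICs in the 3 pairs, so its direction differed between pairs. The summed basal markers were also higher in MICs in each pair, at 318730 against 79552 in pair 1, 8502 against 6837 in pair 2 and 34713 against 22366 in pair 3. Acta2 alone was 230574 of the sum in MICs of pair 1. In pair 2 Krt14 was lower in MICs (2946 against 5507) and weighed on the sum, and Oxtr was lower as well. The median difference of the 8 basal markers on the log2 scale was 2.09, 1.76 and 1.19 in pairs 1, 2 and 3. The part of basal cells in the difference of the Egfr share was not tested.

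**Figure D3:**
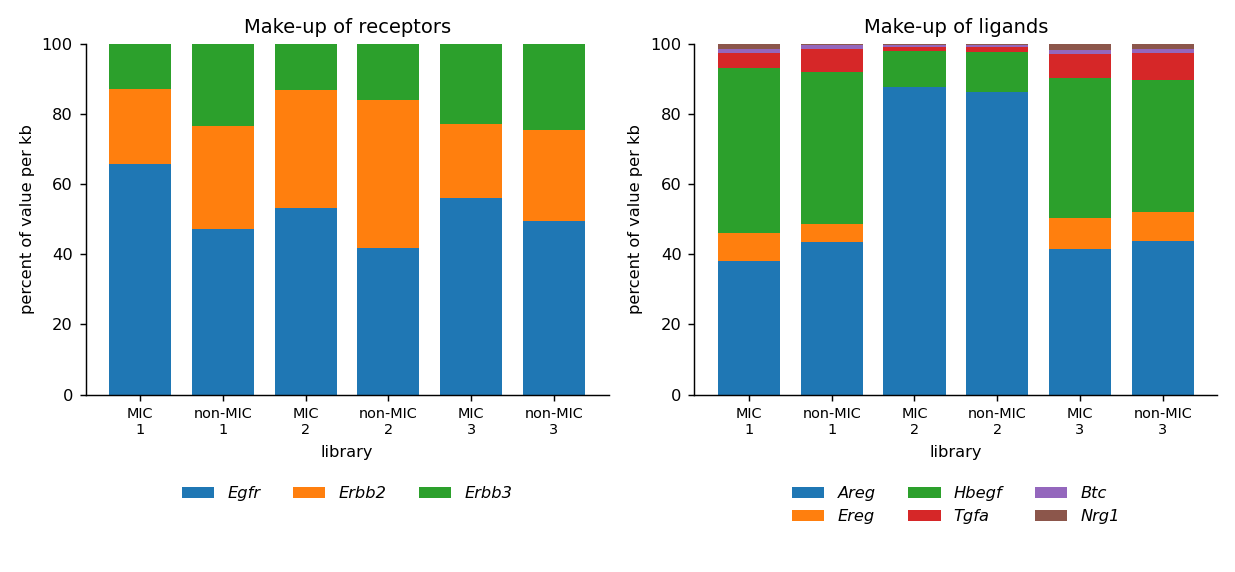
Stacked bars of the percent of the summed normalized count per kb that each gene takes among the receptors (left) and the ligands (right) in each library. The Egfr part of the left bars is larger in each MIC library (53.2% to 65.9%) than in any non-MIC library (41.9% to 49.6%), and Areg fills 87.8% and 86.4% of the ligand bars of pair 2.

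Tgfa, the gene of TGF-alpha, lies on chromosome 6 from 86195223 to 86275719. Normalized counts of 1261, 1955 and 2274 were found for MICs, against 2345, 2650 and 2353 for non-MICs. The groups did not overlap, which among the members held for Erbb2 and Tgfa only, against 6.24% of all genes. As for Erbb2, the difference was largest in pair 1 and smallest in pair 3 (ratios of 0.537, 0.738 and 0.966). MICs had a log2 fold change of -0.46 (SE 0.26, limma adjusted p = 1, and 0.423 with the block).

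Hbegf, the gene of heparin-binding EGF, lies on chromosome 18 from 36504927 to 36515805 and was the most even of the 9 members over the 6 libraries. MICs measured 10164, 12178 and 9724, against 11480, 13616 and 8631 for non-MICs. Only in pair 3 did MICs exceed non-MICs, and the highest library was 1.58 times the lowest. Between populations Hbegf differed by -0.05 on the log2 scale (SE 0.23, limma adjusted p = 1).

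Nrg1, the neuregulin ligand of ErbB3, lies on chromosome 8 from 31814551 to 32884029 and measured 641, 627 and 985 normalized counts in MICs, against 199, 1047 and 794 in non-MICs. MICs were 3.22 times as high as non-MICs in pair 1, 0.599 times in pair 2 and 1.24 times in pair 3. Its mean difference of 0.42 (log2 scale, SE 0.60, limma adjusted p = 1) averages pairs of opposite direction. Without non-MIC replicate 1, the lowest library, it was -0.31.

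Areg, Ereg, Btc and the further ligand gene Epgn lie in a stretch of 376 kb on chromosome 5. In the order of the chromosome, Epgn (epigen) runs from 91027464 to 91035215, Ereg (epiregulin) from 91074622 to 91093646, Areg (amphiregulin) from 91139599 to 91148432 and Btc (betacellulin) from 91357261 to 91402994 on the opposite strand. The gaps between them measure 39.4, 46 and 209 kb. Areg and Ereg differed far more between pairs than between MICs and non-MICs, whereas Btc and Epgn also differed between the populations of pair 2.

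Areg measured 2069, 26521 and 2534 normalized counts in MICs, against 2905, 26300 and 2506 in non-MICs. Both libraries of pair 2 were far above the other 4, and within that pair MICs and non-MICs differed by a ratio of 1.01. Between populations Areg differed by -0.15 on the log2 scale (SE 1.18, limma adjusted p = 1). Ereg went the other way, with 1497, 68.96 and 1822 in MICs, against 1161, 42.26 and 1610 in non-MICs. The values of pair 2 rest on 62 reads in MICs and 40 in non-MICs, against 1097 to 2695 reads in the other 4 libraries. MICs were higher in each pair, by 0.37, 0.69 and 0.18 on the log2 scale, while their mean of 0.41 had an SE of 1.65 (limma adjusted p = 1, and 0.451 with the block). The antisense gene Gm19610 overlaps the start of Ereg, with a mean normalized count of 22.1, and the strand setting of the counting is not given in the sources used here.

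Btc was at 215, 634 and 204 in MICs, against 271, 382 and 216 in non-MICs, with pair 2 highest in both populations, and differed by 0.10 on the log2 scale (SE 0.50, limma adjusted p = 1). Epgn was at 875, 6681 and 949 in MICs, against 846, 2498 and 1066 in non-MICs, again highest in pair 2. Within pair 2, MICs were 1.66 times as high as non-MICs for Btc and 2.68 times for Epgn. Thus in pair 2 the genes Areg, Epgn and Btc had their highest values and Ereg, which lies between Epgn and Areg, its lowest.

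The differences between pairs were tested after these values had been seen, by limma's F test on the replicate terms of the fit with the block. The test sets them against the spread left within pairs, and each pair gave a single library of either population. Its p-values therefore describe these pairs and do not extend to tumors or mice beyond them. Areg (adjusted p = 1.43e-07), Ereg (adjusted p = 3.13e-08), Erbb3 (adjusted p = 0.00601), Btc (adjusted p = 0.0145), Egfr (adjusted p = 0.0249) and Nrg1 (adjusted p = 0.0431) passed, which is 6 of the 9 members against 28.4% of all genes and 36% of those with a mean normalized count of at least 100. Erbb2, Hbegf and Tgfa did not pass. Epgn had an adjusted p of 0.000204. The means of the pairs spanned 10.8-fold for Areg and 31.1-fold for Ereg, and 2.86% and 1.25% of the 11173 genes with a mean normalized count of at least 100 had a wider span. Without pair 2 only Nrg1 passed among the members (adjusted p = 0.0101), and the remaining pairs differed by 0.04 for Areg and 0.38 for Ereg on the log2 scale. Without pair 3 none of the 22310 genes passed, while pair 2 still differed from pair 1 by 3.43 for Areg (limma adjusted p = 0.0968) and -4.58 for Ereg (adjusted p = 0.0917). Without pair 1, 5 members passed, Nrg1 not among them. Pair 2 also stood apart in sums of cell markers. Its summed basal markers were 8502 in MICs and 6837 in non-MICs, against 22366 to 318730 in the other 4 libraries. Of that 22366, in non-MICs of pair 3, Krt14 made up 19135. By mean log2 value, Krt5, Krt14, Acta2 and Cnn1 were lowest in pair 2, but Trp63, Myh11, Mylk and Oxtr in pair 3. The luminal sums of 203142 and 267444 in pair 2 were below the 396744 to 682836 of the others. They rested mostly on Krt8 and Krt18. On mean log2 values Krt8, Krt18, Epcam, Cldn7, Elf5 and Kit were lowest in pair 2, but Krt19 and Cldn3 in pair 3. Elf5 measured 14.46 in MICs and 28.53 in non-MICs of pair 2, against 435 to 1112 in the other libraries. Kit measured 15.57 and 15.85 there, against 328 to 1013. The summed immune markers (6 of 9 with values) were 1733 and 956 in pair 2 and 142 to 258 elsewhere, of which Lyz2 made up 1635 and 834, while Ptprc stayed at or below 10.01. Their part in the differences of Areg and Ereg was not tested.

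Among the 6 ligands, Areg and Hbegf together took most of the level per kb. In pairs 1 and 3 the Areg share lay between 38.1% and 43.7% and the Hbegf share between 37.8% and 47.0%, and the order of the 2 genes differed between libraries. That order depends on the length used. Hbegf has 4834 bases of merged exons but 2890 in its longest transcript, and Areg has 1215 by either. Per kb of the longest transcript, Hbegf lay above Areg in each library of pairs 1 and 3. In pair 2 the Areg share was 87.8% in MICs and 86.4% in non-MICs, and the Hbegf share 10.1% and 11.2%. Ereg took 8.11%, 0.0672% and 8.78% in MICs, against 5.13%, 0.0408% and 8.25% in non-MICs. Tgfa took between 1.21% and 7.67%, and Btc and Nrg1 took under 2% in each library. No ligand share passed a comparison of the populations without pairing (exact permutation tests, p between 0.6 and 0.9, and 0.9 after adjustment). Within pairs 1, 2 and 3 the Ereg share was higher in MICs by 2.98, 0.03 and 0.53 points, and the Tgfa share differed by -2.24, -0.42 and -0.71 points. With the pairing kept, the exact permutation p was 0.25 for both, as for all 3 receptor shares, the smallest that 3 pairs can give.

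The upstream sequences of Egfr, Erbb2, Areg and Tgfa are shown because Areg differed most between pairs among the genes with a sequence at hand, and the other 3 had the same direction in all pairs. They are the 250 bases before the RefSeq start site on GRCm38.p6, plus strand, at chr11:16751953-16752202, chr11:98412234-98412483, chr5:91139349-91139598 and chr6:86194972-86195221. Capitals mark, on either strand, the TATA box TATAAA, the cAMP response element TGACGTCA, the AP-1 site TGANTCA and the GC box GGGCGG.
Egfr: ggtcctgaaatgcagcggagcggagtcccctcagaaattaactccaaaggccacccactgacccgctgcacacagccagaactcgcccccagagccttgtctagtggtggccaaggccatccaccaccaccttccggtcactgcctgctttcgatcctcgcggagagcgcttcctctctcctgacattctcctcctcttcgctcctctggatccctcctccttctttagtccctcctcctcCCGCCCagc
Erbb2: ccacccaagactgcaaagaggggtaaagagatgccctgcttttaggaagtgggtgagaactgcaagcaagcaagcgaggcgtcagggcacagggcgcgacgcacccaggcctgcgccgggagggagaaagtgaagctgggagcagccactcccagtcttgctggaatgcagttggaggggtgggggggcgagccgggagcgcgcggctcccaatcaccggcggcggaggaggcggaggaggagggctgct
Areg: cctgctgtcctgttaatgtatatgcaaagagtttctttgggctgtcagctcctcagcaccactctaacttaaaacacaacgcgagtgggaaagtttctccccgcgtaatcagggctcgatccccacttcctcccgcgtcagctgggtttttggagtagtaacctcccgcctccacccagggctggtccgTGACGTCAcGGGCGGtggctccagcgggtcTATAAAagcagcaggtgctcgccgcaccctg
Tgfa: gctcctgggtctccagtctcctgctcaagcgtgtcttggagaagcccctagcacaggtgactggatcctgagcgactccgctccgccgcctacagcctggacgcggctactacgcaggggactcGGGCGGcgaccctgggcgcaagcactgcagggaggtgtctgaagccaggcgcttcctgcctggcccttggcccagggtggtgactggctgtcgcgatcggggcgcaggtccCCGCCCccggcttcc
The Areg sequence holds TATAAA starting 31 bases and TGACGTCA starting 61 bases before the start site, with 1 GC box between them. The other 3 sequences hold neither, while Egfr has 1 GC box, Tgfa has 2 and Erbb2 has none. The TATA box letters occur in 12.4%, the cAMP response element in 1.55%, the AP-1 site in 6.75% and the GC box in 32.7% of 32851 promoter windows of the same length, and none of the 5 members with a sequence holds the AP-1 letters. A match describes letters only and no binding was measured.

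The 6 further lists of the pathway were compiled by hand and hold 55 genes, 54 of them with values. None of these genes passed the adjusted threshold in limma with or without the block, or in edgeR with it. The log2 fold change was below 0 in 44 of the 54, or 81.5%, against 54.2% of all genes. Their median was -0.21, against -0.045 for all genes and -0.075 for those with a mean normalized count of at least 100. In MICs 21 genes were lower in all 3 pairs, or 38.9%, against 18.8% of all genes and 28.5% of those with a mean normalized count of at least 100, and 3 were higher. In pair 1, 47 of the 54 genes (87%) were lower in MICs, against 50.6% of all genes. In pair 2 it was 33 (61.1%, against 42.6%) and in pair 3 it was 37 (68.5%, against 62.7%). The shares for genes with a mean normalized count of at least 100 were 56.6%, 53.4% and 65.1% in pairs 1, 2 and 3. Against these, the excess was largest in pair 1 and smallest in pair 3.

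Among the ligand shedding genes, 4 of 6 were lower in MICs in all pairs. Rhbdf1 and Rhbdf2, which encode the iRhom proteins that bring ADAM17 to the cell surface, had differences of -0.90, -0.47 and -0.31 and of -0.99, -0.25 and -0.25 in pairs 1, 2 and 3. Rhbdf1 had a log2 fold change of -0.56 (SE 0.21), and its unadjusted limma p of 0.0293 did not hold after adjustment (adjusted p = 1, and 0.413 with the block). The rhomboid protease gene Rhbdl2 was the highest of this list with a log2 fold change of 0.13. All 11 genes of receptor adaptors and kinases had a log2 fold change below 0, from -0.39 for Src, a tyrosine kinase, to -0.10 for Sos2, an exchange factor of RAS, and 6 of the 11 were lower in all pairs.

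Of 12 genes of receptor inhibition and turnover, 3 were higher and 1 was lower in MICs in all pairs. The list ran from -0.35 for Lrig1, an inhibitor of ErbB receptors, to 0.36 for Sh3kbp1, an adaptor of receptor endocytosis. The 9 feedback genes of ERK signaling ran from -0.33 for Spred2 to 0.11 for Spred1, both inhibitors of the RAS-ERK pathway, and 2 were lower in all pairs. Among 12 genes whose transcription is induced by ERK signaling, 7 were lower in MICs in all pairs and 0 were higher. Fosl1, which encodes the AP-1 factor FRA1, measured 992, 1995 and 1500 normalized counts in MICs, against 1739, 3465 and 1910 in non-MICs. It differed by -0.65 on the log2 scale (SE 0.36, limma adjusted p = 1, and 0.299 with the block). Egr2 was the highest of that list at 0.47, with pairs of opposite direction (1.70, -0.28 and -0.01). Among the other ligands, Nrg2 had a log2 fold change of -0.55 and Epgn of 0.43, with neither passing, and Egf lay at or below 41.15 and Nrg4 at or below 6.47.

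**Figure D4:**
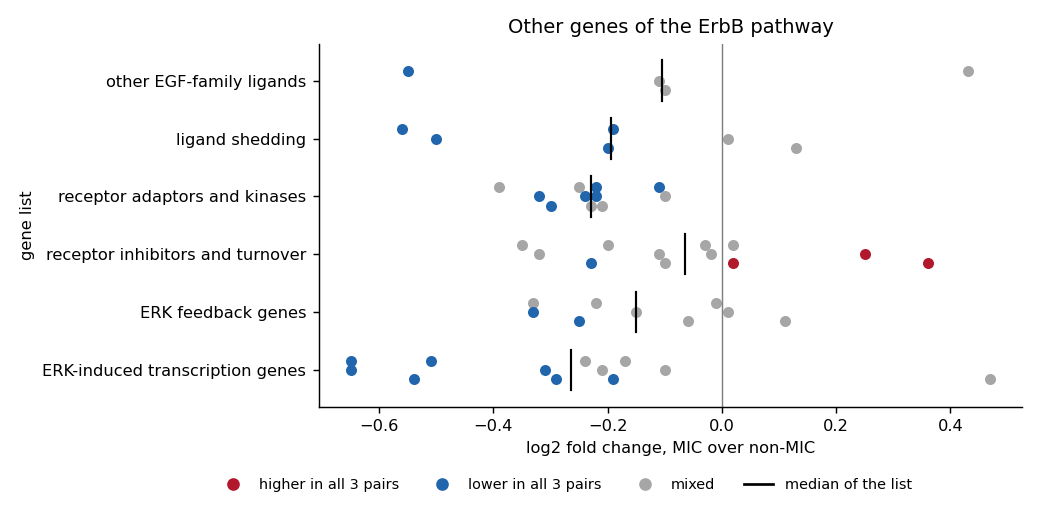
Log2 fold change of MICs over non-MICs for the 54 further pathway genes, 1 point per gene in rows by list, with red for genes higher in MICs in all 3 pairs, blue for genes lower in all 3, grey for the rest and a black line at the median of each list. Most points lie left of 0 (44 of 54), and the 3 red points are in the list of receptor inhibitors and turnover.

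The genes whose pattern over the 6 libraries was most like that of a member were found by Pearson correlation on the log2 scale among the 11173 genes with a mean normalized count of at least 100. The libraries form 3 pairs, so the values describe these libraries only. For Egfr they were Itgb3, the integrin beta 3 gene (r = 0.986), Erc2 (0.981) and Igfbp7 (0.981). For Erbb2 they were Map3k9 (0.998), Gak (0.993) and Sp2 (0.993), and for Erbb3 Ets2 (0.997), Rab11fip1 (0.995) and 2610507B11Rik (0.994). Those of Areg were Ephx2 (0.998), Syt11 (0.997) and Ncmap (0.997), and those of Ereg Zfp820 (0.997), Zfp275 (0.996) and Isoc1 (0.996). Tgfa was most like Cdk6 (0.996), Hbegf like Ntrk2 (0.986), Btc like Fbxo44 (0.993) and Nrg1 like Mpi (0.995). Zfp275 had normalized counts of 6.674 and 1.057 in the libraries of pair 2 and between 694 and 926 in the other 4, a wider gap than that of Ereg.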

How the data were processed

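RNA of sorted MICs and non-MICs was sequenced from stranded mRNA libraries. The authors aligned reads to GRCm38/mm10 and counted them per gene. The paper's methods name a Bowtie2/samtools pipeline and the submitters' processing notes name STAR and HTSeq, and versions are not given in the sources used here. The deposited signal is counts normalized to the library total for genes above 0 in at least 3 of 6 libraries. Of all values, 99.99% to 100% per library were whole multiples (tolerance 0.01) of the value of 1 read, which was 0.676 to 1.11.

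Symbols, positions and merged exon lengths came from GENCODE vM21, which held 22161 of 22310 identifiers. limma 3.58.1 in R 4.3.3 (trend, no block) was run on log2(value + 1) for all genes, with Benjamini-Hochberg adjustment and a threshold of 0.05. No block was used since the study ranked genes without pairing. The numbers in the sample titles pair libraries, because deviations from the group mean correlated within each number (0.573, 0.668 and 0.746 for 1, 2 and 3). The recovered reads were tested with edgeR 4.0.16 (quasi-likelihood) and DESeq2 1.42.0. On simulated data with 200 changed genes of 16582 (MIC against non-MIC), limma recovered 147, and 200 with the block, with 0 and 14 false calls. Recovery of differences as small as those of the members was not tested.

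All members were named, and from each pathway list the genes with the highest and lowest log2 fold change among those with at least 10 reads in every library. Rhbdf2, Zfp275, Egf and Nrg4 were named after their values were seen. Members and lists were chosen with earlier results of these data known. The labels do not name separate animals for the replicates, and p-values measure the spread between these libraries.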

Additional observations from a re-analysis of the deposited data

How the results depend on the processing

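The number of members and of pathway genes called stayed at 0 under TMM rescaling, quantile normalization, limma without a trend, a filter at the median, other pseudocounts (0.1 and 10), edgeR, DESeq2, the replicate block and each left-out library or pair. The number of genes called over the whole table was 0 in the reported fit, 29 in limma with the replicate block, 315 in edgeR with it, 1 in DESeq2 and 133 in DESeq2 with the block, and with the block it was 11 without pair 1, 59 without pair 2 and 0 without pair 3. The block changed no call of a member. The count of members that differed between pairs ranged from 0 to 5 with a pair left out.

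With 1 library left out, the log2 fold change took both signs for Areg (-1.33 to 0.94), Ereg (-1.25 to 1.93), Hbegf (-0.23 to 0.10), Btc (-0.43 to 0.39) and Nrg1 (-0.31 to 0.88). It kept its sign for Egfr (0.07 to 0.53), Erbb2 (-0.50 to -0.30), Erbb3 (-0.93 to -0.16) and Tgfa (-0.64 to -0.21). The difference in share, in percentage points, took both signs for Areg (-18.08 to 12.17), Ereg (-1.04 to 3.97), Hbegf (-8.15 to 12.74), Tgfa (-2.95 to 0.36) and Btc (-0.21 to 0.17), and kept its sign for Egfr (8.36 to 14.73), Erbb2 (-11.24 to -2.36), Erbb3 (-8.21 to -3.32) and Nrg1 (0.02 to 0.85). These fits break the pairs, and within-pair values are given with each gene. With the block and a pair left out, signs also turned for Areg (0.01), Hbegf (0.01), Btc (-0.21) and Nrg1 (-0.21). By longest transcript length, the differences in share between MICs and non-MICs kept their directions. The order of Areg and Hbegf in pairs 1 and 3, and of Egfr and Erbb2 in non-MIC replicate 2, depended on the length used. DESeq2 without the block gave Areg no p-value. At the lowest depth, 40 reads of Ereg, counting error limits the ratio of pair 2.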
